A study of Mus musculus with 12 samples.

Results

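Islets of Langerhans whose beta cells had lost Taf4 were compared at 3 weeks and at 1 week after tamoxifen. The comparison holds 6 bulk RNA-seq libraries, 3 at 3 weeks and 3 at 1 week, of 11 libraries with counts in the whole series. They were taken by their labels alone, with no measured value used. Both groups came from C57/Bl6 mice that carried the Ins1::Cre-ERT2 transgene and Taf4 lox/lox alleles and were given tamoxifen as adults. Each library was made from the pooled islets of 2 mice, kept in culture before RNA extraction. Another 2 libraries came from the same genotype at 5 weeks, and 3 control libraries came from mice with the same Cre and tamoxifen but Taf4 +/+ alleles, for which the labels give no time. Time after tamoxifen, the age of the mice and the day on which each group was prepared therefore cannot be told apart here. The Cre is driven by the insulin gene Ins1 and so acts in beta cells. By staining of mutant islets, the authors reported Taf4 lost from beta cells and still present in cells that express glucagon. Which cells of the islets in these libraries kept or had lost Taf4 was not tested.

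Taf4 is a subunit of TFIID, the complex that recognises core promoters and brings RNA polymerase II to the start of a gene. Islets hold beta cells that make insulin, alpha cells that make glucagon, and smaller numbers of delta and pancreatic polypeptide cells, and an islet preparation always carries some exocrine acinar tissue with it. Reg proteins are small secreted lectins that acinar and islet cells produce strongly during pancreatic injury and inflammation.

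Summed gene counts lay between 16597354 and 20109433 per library at 3 weeks and between 15127133 and 20080265 at 1 week, and 20180 of 34820 genes had enough counts to be tested. The acinar markers took 3.45 to 4.73% of all counts at 3 weeks. At 1 week they took 7.24% in replicate 1, 25.2% in replicate 2 and 18.9% in replicate 3. The hormone genes Ins1, Ins2, Gcg, Sst and Ppy together took 26.8 to 32.3% at 3 weeks and 30.0 to 37.6% at 1 week, and Xist, the RNA that coats the silenced X chromosome of females, was at 1590 to 1721 CPM at 3 weeks and 1652 to 1978 CPM at 1 week. It was at 8.66 to 36.3 CPM in the wild-type libraries, so by this RNA the mutant and wild-type mice differed in sex. Wild-type levels below are given for orientation only. They come from islets that differ from the mutants in Xist and in acinar share (29.1 to 52.3%) as well as in genotype. All levels are CPM, a gene's counts relative to the library total after scaling by edgeR's TMM factors, which were 1.156 to 1.228 at 3 weeks and 0.777 to 0.990 at 1 week. In bulk islets, fewer cells of a type and less RNA per cell cannot be told apart. The 3 libraries at 3 weeks resembled each other more closely than those at 1 week (chi-square per degree of freedom between pairs of 5.76 to 23.3, against 47.3 to 172.5), and replicate 2 at 1 week was the highest and replicate 1 the lowest for many exocrine and immune genes.

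With TMM scaling, more genes of mutant islets were lower than higher at the later time. At 3 weeks 40 genes were higher and 377 were lower than at 1 week (adjusted p below 0.05 and a log2 fold change beyond 1 in either direction, edgeR's quasi-likelihood test with Benjamini-Hochberg adjustment), which is 0.198% and 1.87% of the genes tested. By the adjusted p alone, which is the rule used for every list below, 190 genes (0.942%) rose and 580 (2.87%) fell. The median log2 fold change of all genes was 0.01. Groups that did not overlap were common, in 4889 of the genes tested (24.2%), most of them without a call. Of the 417 genes called by both thresholds, 385 did not overlap. Of the 377 lower genes, 34 were acinar markers or acinar transcription factors and 240 were in none of the 48 gene lists examined. The balance depended on the scaling. With library totals alone the median of all genes moved to 0.49 on the log2 scale, and 748 genes were then higher and 222 lower, so that higher genes made 77.1% of the calls against 9.59% with TMM scaling. Without replicate 2 of the 1-week group 250 genes were lower, of which 217 were among the 377.

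**Figure D1:**
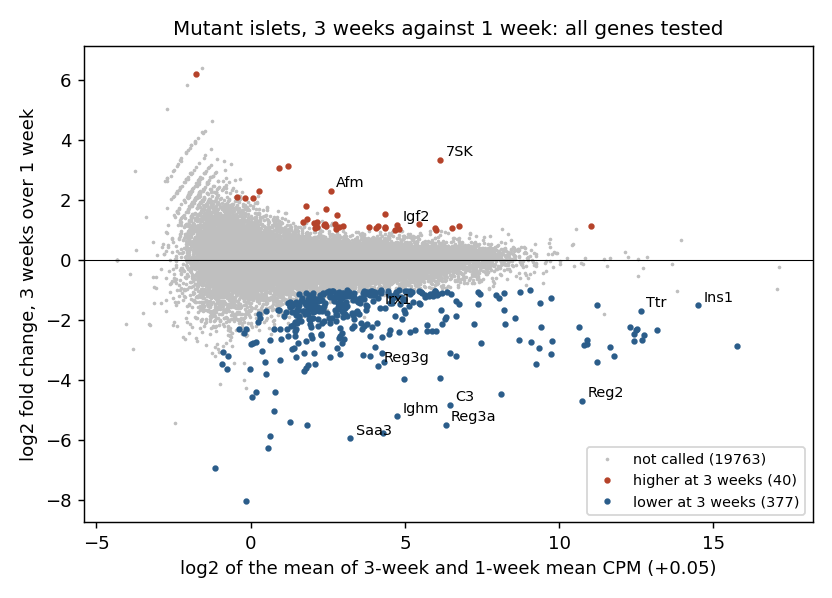
Log2 fold change of every tested gene (3 weeks over 1 week, vertical axis) against the log2 of its mean CPM over both groups (horizontal axis). Points in colour passed both thresholds, 40 of them higher and 377 lower at 3 weeks, and the lower ones reach further from 0 than most of the higher ones.

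The Reg genes were the gene family with the lowest median change. Of 7 listed, 6 were tested and all 6 fell, with a median log2 fold change of -3.99. They lie together on chromosome 6. For comparison, the 100 bases before the annotated start of 4 of them are shown 5′ to 3′ (RefSeq, GRCm38.p6), with TATAAA, the core of the TATA box that TFIID binds, in capitals.
Reg3a (chr6:78380609-78380708, plus strand): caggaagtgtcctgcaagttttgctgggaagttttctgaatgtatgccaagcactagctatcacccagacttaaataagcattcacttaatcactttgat
Reg3b (chr6:78370785-78370884, plus strand): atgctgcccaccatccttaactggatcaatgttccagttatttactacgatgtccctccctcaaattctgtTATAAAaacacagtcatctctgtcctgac
Reg3g (chr6:78468875-78468974, minus strand): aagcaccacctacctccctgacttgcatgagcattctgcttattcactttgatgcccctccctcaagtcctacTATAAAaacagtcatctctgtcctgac
Reg2 (chr6:78405055-78405154, plus strand): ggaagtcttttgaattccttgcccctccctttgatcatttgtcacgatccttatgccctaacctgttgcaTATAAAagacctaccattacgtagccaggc
The motif begins 29 bases before the start of Reg3b, 27 before Reg3g and 30 before Reg2, and the same search found it 30 bases before Reg1. It was searched on the sense strand only, with its first base 40 to 20 bases before the start, and 650 of 27025 genes in the promoter table (2.41%) hold it there. It was not found in that window for Reg3a or Reg3d, which says only that these letters are absent from the window before the start used by the table.

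Reg3a had 3.89, 2.83 and 3.70 CPM at 3 weeks, against 106, 161 and 200 CPM at 1 week (log2 fold change -5.49 ± 0.56 SE, adjusted p = 5.92e-05, edgeR). Reg3b had 23.1, 25.5 and 24.9 CPM at 3 weeks, against 434, 574 and 596 CPM at 1 week (-4.45 ± 0.62, adjusted p = 0.000691). Reg3g, an antibacterial lectin in the gut, had 2.88, 2.83 and 2.71 CPM at 3 weeks, against 23.4, 35.3 and 38.5 CPM at 1 week (-3.52 ± 0.29, adjusted p = 5.20e-06). The groups of all 3 genes were far apart. Replicate 1 at 1 week, which had the fewest acinar counts of its group, was above every 3-week library and the lowest at 1 week for each gene. Wild-type libraries had 2.33, 0.781 and 1.63 CPM of Reg3g, 2.33, 0.852 and 15.3 CPM of Reg3a, and 33.3, 7.17 and 148 CPM of Reg3b. At 5 weeks Reg3g had 0.237 and 0.0585 CPM. For these 3 genes the call held without any 1 library, under every scaling and in the DESeq2 test, with a log2 fold change of Reg3a between -5.72 and -4.98.

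The other tested members were uneven at 1 week, as the acinar genes were. Reg2 had 118, 131 and 136 CPM at 3 weeks, against 1530, 4409 and 4042 CPM at 1 week (-4.70 ± 0.95, adjusted p = 0.00835). It lost its call without any 1 of the 3-week libraries (adjusted p = 0.0511 to 0.0671) at log2 fold changes of -4.64 to -4.74. Reg3d had 20.6, 16.2 and 18.2 CPM at 3 weeks, against 58.1, 246 and 172 CPM at 1 week (-3.11 ± 0.43, adjusted p = 0.000691), and 231, 84.2 and 277 CPM in wild type. Reg1, which is also in the acinar list, fell by 2.90 (± 0.65, adjusted p = 0.0164). The part of acinar tissue in the fall of any Reg gene was not tested.

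**Figure D2:**
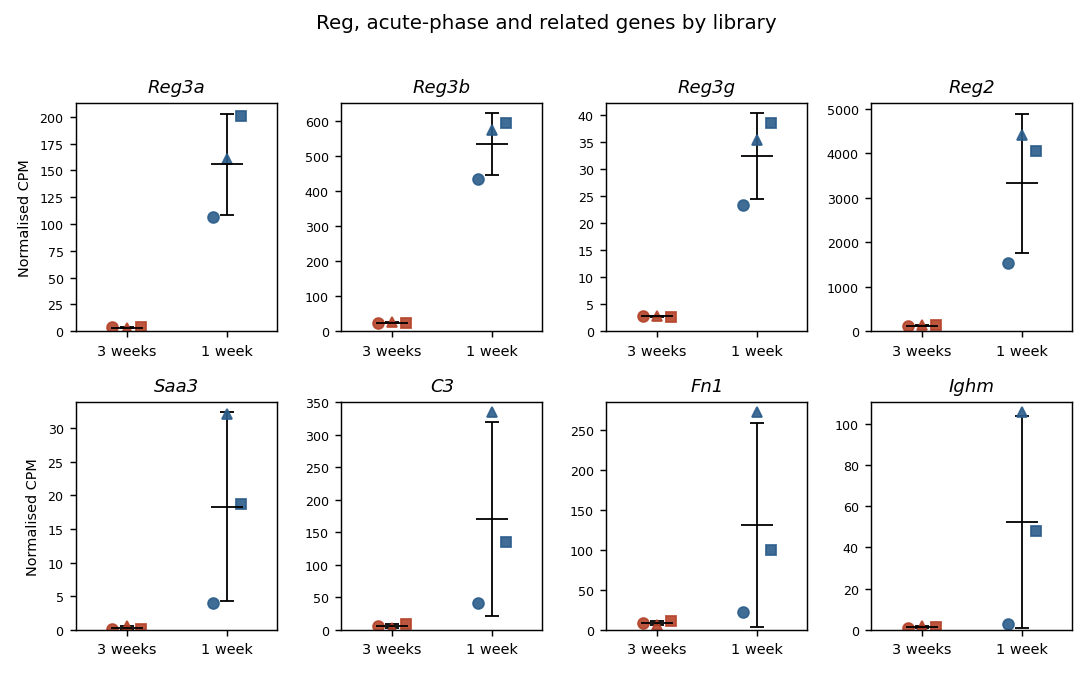
Normalised CPM of 8 genes in each library at 3 weeks (left) and 1 week (right), with circles, triangles and squares for replicates 1, 2 and 3, and bars for the mean and SD of n = 3. The 3-week libraries sit near 0 on each axis, while Reg3a, Reg3b and Reg3g were high in all 3 libraries at 1 week and C3, Fn1 and Ighm differed widely among them.

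Acute-phase and complement genes also fell. Of 39 listed, 28 were tested, 9 fell and none rose, with a median of -0.91. Saa3, an inflammatory serum amyloid, had 0.127, 0.607 and 0.104 CPM at 3 weeks, against 4.07, 32.1 and 18.8 CPM at 1 week (-5.94 ± 0.75, adjusted p = 0.000405). C3, the central complement protein, had 6.22, 3.48 and 8.45 CPM at 3 weeks, against 41.5, 334 and 135 CPM at 1 week (-4.83 ± 0.52, adjusted p = 0.000105). The groups did not overlap for either gene, as the rule for the largest changes required, although replicate 2 at 1 week stood well above replicate 1. C4b, another complement protein, fell by 2.59 and Itih4, an acute-phase inhibitor subunit, fell by 3.17. Without replicate 2 of the 1-week group 6 of the list fell.

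Chemokines went the same way, with 9 of 21 tested members lower, none higher and a median of -1.104, of 37 listed. Cxcl13, which draws in B cells, had 0.338, 0.526 and 0.104 CPM at 3 weeks, against 1.85, 4.87 and 3.54 CPM at 1 week (-3.34 ± 0.65, adjusted p = 0.00698). Ccl9 fell by 2.68 and Ccl2, which attracts monocytes, by 2.63. Cx3cl1, a membrane-bound chemokine, fell by 0.94, with 13.5, 14.3 and 10.9 CPM at 3 weeks and 22.1, 21.4 and 31.1 CPM at 1 week. These are low levels, and 3 of the list fell without replicate 2 of the 1-week group, with adjusted p = 0.0586 for Ccl9, or without replicate 1 of the 3-week group. Counts were 4 without replicate 2 at 3 weeks or replicate 3 at 1 week, and 1 without replicate 3 at 3 weeks. Ccl2 lost its call without any of the 6 libraries but replicate 1 at 1 week (adjusted p = 0.0559 to 0.0879), Cx3cl1 without replicate 3 of either time (0.0688 and 0.051), and Cxcl13 without replicate 3 at 3 weeks (0.0508).

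Macrophage markers fell in 11 of 26 tested (28 listed), with none higher and a median of -0.91. C1qb, a chain of the complement protein C1q that tissue macrophages make, had 6.47, 7.25 and 7.51 CPM at 3 weeks, against 17.4, 20.1 and 21.9 CPM at 1 week (-1.48 ± 0.19, adjusted p = 0.000429). Tyrobp, a signalling adaptor of myeloid cells, had 3.98, 3.36 and 3.28 CPM at 3 weeks, against 8.76, 11.03 and 13.02 CPM at 1 week (-1.62 ± 0.25, adjusted p = 0.00129). Neither gene overlapped between the times, as was true of 385 of the 417 genes called by both thresholds. In wild type C1qb had 8.96, 7.95 and 11.3 CPM and Tyrobp 2.99, 3.41 and 4.34 CPM. C1qc fell by 1.71 and Ctss, a lysosomal protease, by 1.03. The list's summed share was 0.0289 to 0.0317% of counts at 3 weeks and 0.0407 to 0.0448% at 1 week. Without replicate 1 of the 3-week group 4 members fell, and without its replicate 3, 5.

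B-cell transcripts were higher in replicates 2 and 3 at 1 week than in the other 1-week library or at 3 weeks. Ighm, the heavy chain of IgM, had 1.0998, 1.66 and 1.46 CPM at 3 weeks, against 3.08, 105 and 48.0 CPM at 1 week (-5.21 ± 0.80, adjusted p = 0.0013). Igkc, the kappa light chain, had 2.33, 1.94 and 6.26 CPM at 3 weeks, against 0.308, 67.6 and 41.0 CPM at 1 week (-3.39 ± 0.86, adjusted p = 0.0345), so that the groups overlapped. Igkc was not called without replicate 2 of the 1-week group (adjusted p = 0.122) nor without replicate 3 of that group or any 1 of the 3-week libraries (0.0779 to 0.158), nor in DESeq2 (0.109). In wild type Ighm had 24.2, 23.4 and 7.32 CPM and Igkc had 8.96, 18.3 and 7.32 CPM. Another heavy-chain gene, Ighg1, went the other way at low levels, with 4.27, 1.58 and 3.96 CPM at 3 weeks, against 0.370, 0.513 and 0.241 CPM at 1 week (3.08 ± 0.59, adjusted p = 0.00655). Of 11 tested lymphocyte markers Ighm and Igkc fell, and none of 12 tested neutrophil markers passed the test.

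Acinar enzymes were lower at 3 weeks almost throughout. Of 34 markers 33 were tested, 30 fell and none rose, and the median was -2.68. Dmbt1, a secreted mucin-like protein, had 424, 413 and 418 CPM at 3 weeks, against 1727, 6105 and 5420 CPM at 1 week (-3.40 ± 0.46, adjusted p = 0.000577). Zg16, a zymogen granule protein, had 202, 274 and 223 CPM at 3 weeks, against 521, 2463 and 1498 CPM at 1 week (-2.68 ± 0.43, adjusted p = 0.00168). In both, the lowest 1-week library was above every 3-week library, which the rule for the largest changes required of Dmbt1. Wild type had 9913, 3890 and 10733 CPM of Dmbt1 and 4384, 2348 and 5233 CPM of Zg16. The trypsinogens Try5, Try10 and Prss3 fell by 3.46, 3.09 and 3.97, and reads of these near-identical genes may be shared. Prss3 lost its call without any 1 of the 3-week libraries or replicate 2 at 1 week (adjusted p = 0.0622 to 0.0821), and Try5 without replicate 1 or 3 at 3 weeks (0.0571 and 0.063). Ctrc, chymotrypsin C, fell by 2.57.

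Transcription factors of acinar cells moved with their enzymes, 4 of 5 tested members being lower. Rbpjl, a subunit of the PTF1 complex that drives acinar genes, had 10.1, 12.9 and 11.1 CPM at 3 weeks, against 19.1, 126 and 35.0 CPM at 1 week (-2.40 ± 0.45, adjusted p = 0.00548). Without replicate 2 of the 1-week group its log2 fold change was -1.26 with adjusted p = 0.0162. Ptf1a fell by 2.72 and Bhlha15, which shapes the secretory apparatus, by 1.23, and Nr5a2 had a log2 fold change of -1.498. Without that library Bhlha15 had adjusted p = 0.189 and Nr5a2 adjusted p = 0.139, and leaving out any 1 of the 3-week libraries or replicate 3 at 1 week also ended both calls (0.0633 to 0.178). The log2 fold change of Bhlha15 was then -0.67 without replicate 2 at 1 week, and Ptf1a had adjusted p = 0.0542 without replicate 3 at 3 weeks. The count of acinar markers lower was 19 without that library, and 9, 15 and 10 without replicates 1, 2 and 3 of the 3-week group.

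Ductal and stromal lists were less uniform. Of 21 ductal markers 4 fell, including Tff2, a trefoil peptide that fell by 2.37, and Muc1, which fell by 2.40. Tff2 was not called without replicate 3 at 3 weeks (adjusted p = 0.0542) or in DESeq2 (0.0641), and the ductal count was 1 or 2 without replicate 1 or 3 at 3 weeks or replicate 2 or 3 at 1 week. Muc1 followed the acinar pattern, with 8.67, 8.62 and 9.18 CPM at 3 weeks and 16.7, 70.7 and 52.4 CPM at 1 week. Of 25 pericyte and fibroblast markers 5 fell, with a median of -0.72. Dcn, the matrix proteoglycan decorin, had 7.74, 7.98 and 7.46 CPM at 3 weeks, against 26.3, 55.6 and 33.4 CPM at 1 week (-2.31 ± 0.31, adjusted p = 0.000516). Of 33 matrix genes 5 fell. Fn1, fibronectin, had 9.18, 5.67 and 10.9 CPM at 3 weeks, against 22.8, 272 and 99.9 CPM at 1 week (-3.94 ± 0.56, adjusted p = 0.000818), and its log2 fold change was -2.86 without replicate 2 of the 1-week group. Without any 1 of these 6 libraries the matrix count was 1 or 2, except 8 without replicate 1 at 1 week, and the pericyte count was 2 or 3 without a 3-week library and 9 without replicate 1 at 1 week. Replicate 2 at 1 week also held 17.0 CPM of the mitotic cyclin Ccnb2, against 0.802 and 0.402 CPM in the other 1-week libraries and 0.508, 0.567 and 0.313 CPM at 3 weeks. The fall of Ccnb2 rested on it, its log2 fold change being -0.39 with adjusted p = 0.836 without it, and the call was also lost without any 1 of the 3-week libraries (0.103 to 0.153). Of 22 endothelial markers 1 fell, Sox18, whose call was lost without any of the 6 libraries but replicate 2 at 1 week and without wild-type replicate 1 (adjusted p = 0.0558 to 0.185).

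**Figure D3:**
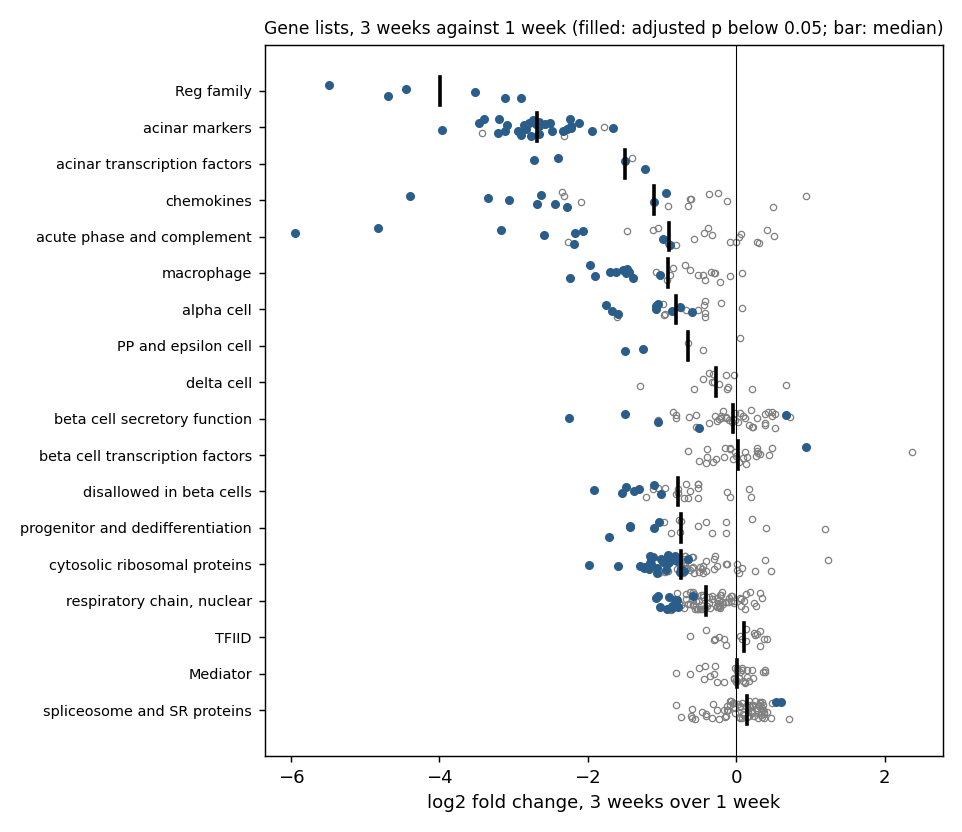
Log2 fold change (3 weeks over 1 week, horizontal axis) of each tested member of 18 gene lists, filled where the adjusted p was below 0.05, with a bar at each list's median. The Reg and acinar lists lie furthest to the left, and TFIID, Mediator and beta cell transcription factors lie around 0.

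Among endocrine cells, alpha cell genes fell. Of 24 listed, 22 were tested, 9 fell and none rose, and 21 had a log2 fold change below 0 (median -0.81). Irx1, a homeobox gene of alpha cells, had 8.88, 7.69 and 10.4 CPM at 3 weeks, against 30.1, 24.4 and 26.8 CPM at 1 week (-1.59 ± 0.18, adjusted p = 0.000135). Fev, an ETS-family factor, had 10.3, 10.2 and 11.2 CPM at 3 weeks, against 23.5, 19.7 and 22.9 CPM at 1 week (-1.06 ± 0.18, adjusted p = 0.00292), and its call was lost with library totals alone (adjusted p = 0.119). The 1-week libraries of both genes lay close together, and the part of acinar tissue in these changes was not tested. In wild type Irx1 had 8.58, 6.82 and 9.03 CPM and Fev had 8.86, 6.60 and 10.3 CPM, and at 5 weeks Irx1 had 11.9 and 10.4 CPM.

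Ttr, transthyretin, which alpha cells make in quantity, had 2987, 3077 and 3056 CPM at 3 weeks, against 8464, 11139 and 9579 CPM at 1 week (-1.68 ± 0.31, adjusted p = 0.00478). Gcg, which encodes glucagon, had 93600, 82845 and 104720 CPM at 3 weeks, against 170060, 193510 and 181930 CPM at 1 week. Its log2 fold change of -0.96 ± 0.36 was not past the threshold (adjusted p = 0.161). The groups did not overlap, as was true of 24.2% of all genes tested. Gcg passed in the fit of the 6 mutant libraries alone (adjusted p = 0.0268), with acinar genes removed (0.0321) and in DESeq2 (0.0491). The count of alpha cell genes that fell was 14 with the 6 libraries alone and in DESeq2, 3 with library totals alone, and 4, 6 and 5 without replicates 1, 2 and 3 of the 3-week group.

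Polypeptide hormones fell with them. Ppy, pancreatic polypeptide, had 504, 504 and 486 CPM at 3 weeks, against 1062, 1023 and 1489 CPM at 1 week (-1.26 ± 0.32, adjusted p = 0.0341). Pyy, peptide YY, had 984, 1858 and 913 CPM at 3 weeks, against 2847, 2840 and 4935 CPM at 1 week (-1.50 ± 0.31, adjusted p = 0.00985). The groups did not overlap for either gene, as was true of 385 of the 417 genes called by both thresholds. Ppy was not called without replicate 3 of the 1-week group or any 1 of the 3-week libraries (adjusted p = 0.103 to 0.149), with library totals alone (0.0679) or in DESeq2 (0.0728). Pyy was not called without replicate 3 of the 1-week group, nor without replicate 1 or 3 of the 3-week group (0.0651 to 0.0886). Sst, somatostatin of delta cells, had 13827, 7487 and 15176 CPM at 3 weeks and 7875, 18662 and 13595 CPM at 1 week (-0.14 ± 0.34, adjusted p = 0.88). None of 14 tested delta cell genes passed the test.

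Of the 2 insulin genes, Ins1 fell and Ins2 did not pass the test. Ins1 had 11368, 13447 and 11489 CPM at 3 weeks, against 47638, 18549 and 36431 CPM at 1 week (-1.50 ± 0.34, adjusted p = 0.0166). Ins2 had 135880, 114160 and 147540 CPM at 3 weeks, against 153550, 154460 and 158930 CPM at 1 week (-0.23 ± 0.37, adjusted p = 0.798). Its raw counts were higher at 3 weeks (3212321, 2819693 and 2829718) than at 1 week (2490340, 2409086 and 1977682). Relative to library totals alone its mean was not lower at 3 weeks, so its direction depended on the TMM scaling. Ins1 was above all 3-week libraries in each 1-week library, and wild type had 78730, 97370 and 107140 CPM. Its call was lost without any 3-week library, without replicate 1 or 3 at 1 week (adjusted p between 0.0533 and 0.133) and with library totals alone (0.0727). Whether the changes of Ins1 and Ins2 differed from each other was not tested.

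Most other beta cell genes were not called. Slc2a2, the glucose transporter, had 9.94, 11.7 and 9.12 CPM at 3 weeks and 33.2, 7.25 and 13.2 CPM at 1 week (-0.81 ± 0.35, adjusted p = 0.227), all far below the 390, 572 and 463 CPM of wild type. Ucn3, a peptide of mature beta cells, had 81.6, 81.4 and 95.9 CPM at 3 weeks and 176, 77.1 and 122 CPM at 1 week (-0.54 ± 0.23, adjusted p = 0.219). Both overlapped through replicate 2 at 1 week, and without it they were called (adjusted p = 0.0338 for Slc2a2 and 0.043 for Ucn3). Trpm5, a cation channel, had 8.33, 6.15 and 5.94 CPM at 3 weeks and 9.43, 5.45 and 6.03 CPM at 1 week (-0.04 ± 0.22, adjusted p = 0.954). Of 44 secretory genes tested, 4 fell (Ins1, Npy, Gpr119 and Rph3al), Glp1r, the receptor of the incretin GLP-1, rose, and the median was -0.04. Over all genes tested 2.87% fell and 0.942% rose. Without any 1 of the 3-week libraries or replicate 3 at 1 week 1 of these secretory genes fell. The Glp1r call was lost without any 1 of the 6 libraries but replicate 2 at 1 week (0.0562 to 0.127).

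Beta cell transcription factors were near 0 as a list (28 tested, 1 rose, none fell, median 0.02). Pdx1 had 116, 132 and 110 CPM at 3 weeks and 121, 87.8 and 88.2 CPM at 1 week (0.27 ± 0.16, adjusted p = 0.401). Nkx6-1 had a log2 fold change of 0.44 ± 0.16 (adjusted p = 0.143), and Mafa of -0.15 ± 0.27 (adjusted p = 0.832). Insm1, a zinc-finger factor of endocrine cells, had 111, 82.5 and 113 CPM at 3 weeks, against 67.5, 41.9 and 51.1 CPM at 1 week (0.94 ± 0.20, adjusted p = 0.0135), and missed the threshold without replicate 1 or 3 at 3 weeks or replicate 2 or 3 at 1 week (0.0575 to 0.0834). Neurog3, the endocrine progenitor factor, was at 3.38, 4.09 and 3.55 CPM at 3 weeks and 5.36, 5.07 and 4.18 CPM at 1 week (adjusted p = 0.489).

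**Figure D4:**
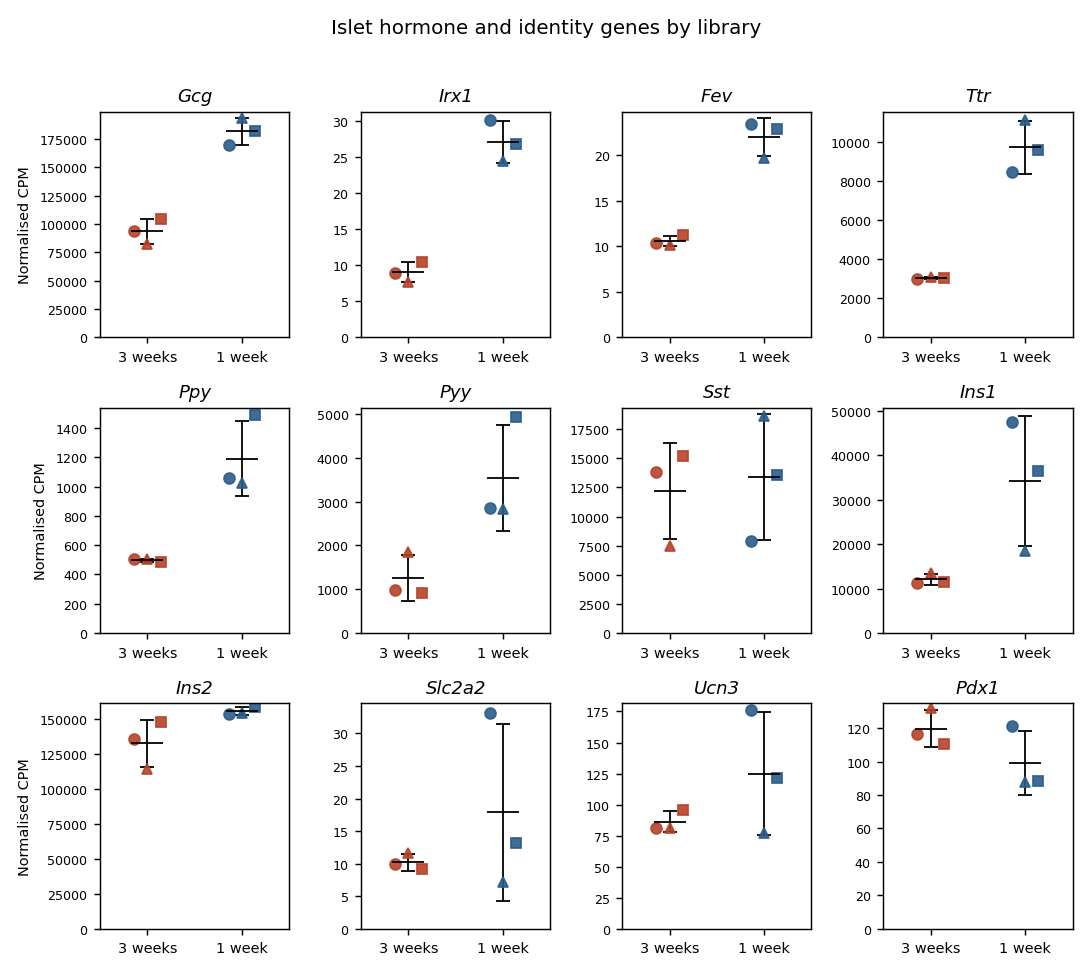
Normalised CPM of 12 islet genes in each library at 3 weeks (left) and 1 week (right), with circles, triangles and squares for replicates 1, 2 and 3, and bars for the mean and SD of n = 3. Irx1, Fev and Ttr separate the times with little spread, whereas Slc2a2 and Ucn3 overlap because replicate 2 at 1 week is low.

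Progenitor genes and genes that beta cells normally keep silent gave more lower than higher calls. Of 18 tested progenitor or dedifferentiation genes (24 listed) 5 fell, namely Sox9, Vim, Sox4, Aass and Nnat. Sox9, a duct and progenitor factor, had 2.16, 4.05 and 2.19 CPM at 3 weeks, against 3.88, 9.42 and 9.64 CPM at 1 week (-1.43 ± 0.35, adjusted p = 0.0285), with overlap. Of 26 such silent genes 7 fell, with Ldha, lactate dehydrogenase, at 2.96, 4.33 and 5.32 CPM at 3 weeks and 6.23, 18.5 and 10.5 CPM at 1 week (-1.49 ± 0.35, adjusted p = 0.0238). Without replicate 2 of the 1-week group 1 progenitor gene and 2 of these silent genes were called, without replicate 3 of that group 1 and 2, and without any 1 of the 3-week libraries 0 to 2 of each list. Vim, Sox4 and Ldha lost their calls without any of the 6 libraries but replicate 1 at 1 week, and Sox9 without each of 4 of them, and the log2 fold change of Vim was -0.80 without replicate 2 at 1 week, against -1.43 with all libraries. Acinar, ductal and stromal cells express many members of both lists, and their part was not tested.

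Fewer genes rose. Only 2 of the 40 higher genes were in any list, Igf2 and Hist1h2be. Guf1, a GTPase of mitochondrial translation, had 63.8, 53.7 and 64.6 CPM at 3 weeks, against 31.1, 24.7 and 23.1 CPM at 1 week (1.20 ± 0.16, adjusted p = 0.000429). Pde5a, which breaks down cyclic GMP, had 153, 150 and 145 CPM at 3 weeks, against 68.3, 67.5 and 66.8 CPM at 1 week (1.144 ± 0.17, adjusted p = 0.00129). The libraries of each group lay close together, and the rule for the largest changes required groups that did not overlap. Wild type had 26.1, 28.9 and 21.5 CPM of Guf1, and 120, 209 and 132 CPM of Pde5a.

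Igf2, an imprinted growth factor that lies beside Ins2, had 35.6, 41.9 and 35.0 CPM at 3 weeks, against 9.93, 21.2 and 18.5 CPM at 1 week (1.19 ± 0.23, adjusted p = 0.00763). In the annotation of the files' build, NCBIM37, Igf2 spans chromosome 7 from 149836673 to 149852721 and the Ins2 gene from 149864561 to 149885415, both on the minus strand. Nr1d1, the clock repressor REV-ERB alpha, had 130, 112 and 133 CPM at 3 weeks, against 55.9, 62.3 and 60.7 CPM at 1 week (1.06 ± 0.14, adjusted p = 0.000577). Bhlhe40, another repressor of clock genes, had 25.7, 30.4 and 27.3 CPM at 3 weeks, against 13.6, 9.04 and 16.9 CPM at 1 week (1.08 ± 0.21, adjusted p = 0.00684). The groups of these 3 genes did not overlap, which the rule for the largest changes required.

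The largest rise among genes with a mean of at least 10 CPM was at an annotated 7SK locus. 7SK is the small nuclear RNA that holds the elongation kinase P-TEFb in an inactive complex. This copy of 7SK, ENSMUSG00000064397 on chromosome 9, had 114, 137 and 134 CPM at 3 weeks, against 16.8, 11.5 and 9.32 CPM at 1 week (3.34 ± 0.47, adjusted p = 0.000793). The table lists 315 entries with this name, of which 42 were tested and 1 passed, so reads may have been split among near-identical copies. The chromosome 9 copy had 77.1 and 24.99 CPM at 5 weeks and 17.4, 2.63 and 21.5 CPM in wild type. Whether this copy is the functional 7SK gene was not tested. Afm, a vitamin E-binding plasma protein, had 10.2, 8.83 and 11.2 CPM at 3 weeks, against 0.308, 5.32 and 0.321 CPM at 1 week (2.31 ± 0.62, adjusted p = 0.043). Its log2 fold change was 4.96 without replicate 2 of the 1-week group, and its call was lost without 7 of the 10 other libraries. Cnnm1, Piga, Rpusd2, Limch1 and Hist1h2be rose by log2 fold changes of 1.51, 1.142, 1.1397, 1.12 and 1.12. Limch1 was not called without replicate 1 or 3 at 3 weeks or replicate 3 at 1 week (adjusted p = 0.0655 to 0.0716), Rpusd2 without replicate 2 or 3 at 3 weeks or replicate 3 at 1 week (0.0541 to 0.073), nor Piga without replicate 2 at 3 weeks (0.0565).

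**Figure D5:**
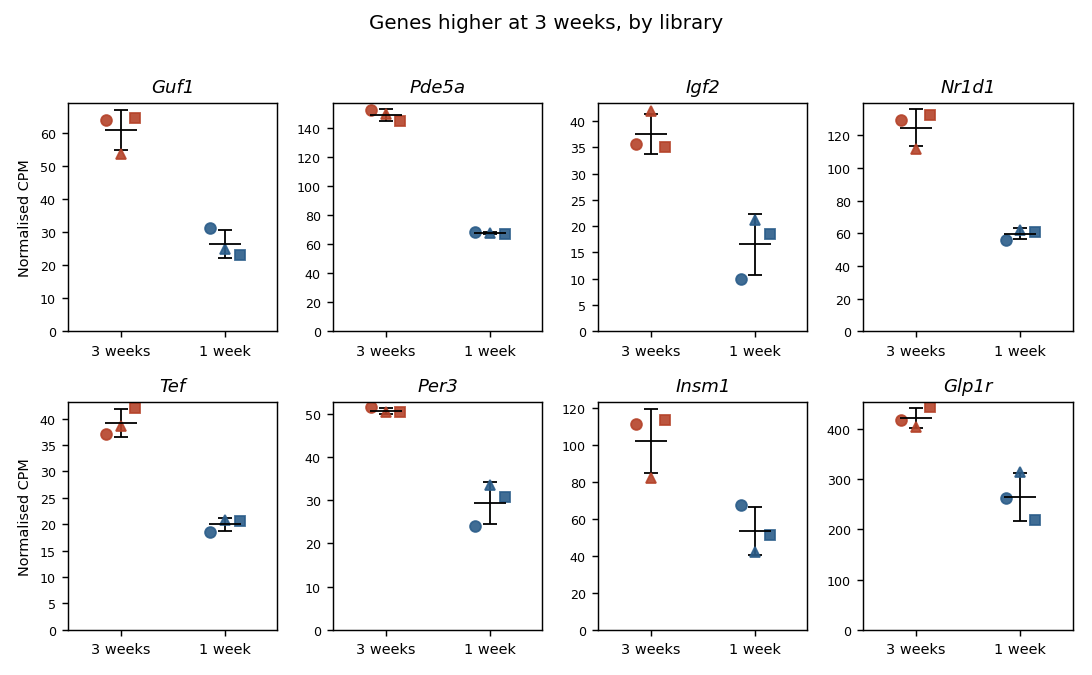
Normalised CPM of 8 genes that rose, including the clock genes Tef and Per3 chosen after their values were seen, in each library at 3 weeks (left) and 1 week (right), with circles, triangles and squares for replicates 1, 2 and 3, and bars for the mean and SD of n = 3. No 3-week library overlaps a 1-week library, which the rule for the largest changes required of Guf1, Pde5a, Igf2 and Nr1d1. The spread at 1 week was smallest for Pde5a (0.77 CPM SD around 67.5).

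Ribosomal protein genes fell in 33 of 79 tested, with none higher and a median of -0.75. Rps16, a protein of the small subunit, had 3.43, 4.62 and 4.38 CPM at 3 weeks, against 11.5, 11.4 and 14.7 CPM at 1 week (-1.60 ± 0.29, adjusted p = 0.00472). Rplp1, a stalk protein, had 25.7, 44.8 and 25.6 CPM at 3 weeks, against 115, 109 and 155 CPM at 1 week (-1.98 ± 0.29, adjusted p = 0.000945). Rps20 fell by 1.18. The groups of Rps16 and Rplp1 did not overlap, as was true of 385 of the 417 genes called by both thresholds. Nuclear genes of the respiratory chain fell in 11 of 78 tested, with a median of -0.41, among them Atp5e (-0.93 ± 0.17, adjusted p = 0.00506) and Ndufa13 (-1.08 ± 0.22, adjusted p = 0.00985, but 0.0618 to 0.0765 without replicate 1 or 3 at 3 weeks or replicate 3 at 1 week). Many ribosomal protein genes have processed pseudogenes with which reads may be shared.

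These mRNAs are short, and the change between the times differed with transcript length. Protein-coding genes with a median transcript of up to 600 bases had a median log2 fold change of -0.33 and 12.7% of them fell, against a median of 0.05 and 2.55% for those over 4000 bases. Ribosomal protein and respiratory chain genes were not taken out of these length classes. The 78 ribosomal protein genes with a length had a median of 722.5 bases and a median log2 fold change of -0.74, and 2298 other coding genes up to 1000 bases, outside these lists, had a median of -0.13. The part of transcript length in either list was not tested. With library totals alone 3 ribosomal protein genes and no respiratory chain gene fell. Without replicate 3 of the 1-week group the counts were 10 and 1, and without replicate 2 they were 21 and 6. Without replicates 1, 2 and 3 of the 3-week group they were 7, 16 and 7 for ribosomal protein genes and 1, 6 and 1 for the respiratory chain. The respiratory chain count was 22 without either 5-week library, 23 with no filter on low counts, 26 with the 6 libraries alone and 18 in DESeq2.

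The transcription machinery gave few calls. Taf4a, counted over the whole gene so that the floxed exons are not resolved, had 27.3, 26.2 and 25.9 CPM at 3 weeks and 27.1, 36.9 and 29.1 CPM at 1 week (-0.23 ± 0.16, adjusted p = 0.487). Its paralogue Taf4b had 9.47, 5.47 and 10.0 CPM at 3 weeks and 7.52, 8.78 and 7.23 CPM at 1 week (adjusted p = 0.913), and Taf12, its histone-fold partner in TFIID, had 19.8, 20.1 and 22.0 CPM at 3 weeks and 15.8, 21.7 and 18.6 CPM at 1 week (adjusted p = 0.701). None of the tested entries of TFIID (18), the general factors (17), Mediator (32) or the chromatin remodellers (34) passed the test, and their medians were 0.10, -0.05, 0.01 and 0.11. Of 12 RNA polymerase II subunits Polr2a, the largest, rose by a log2 fold change of 0.58 (adjusted p = 0.0472), and the small subunits Polr2f and Polr2i fell by 1.40 and 0.88. Polr2a lost its call without each of 9 libraries, Polr2i without any of the 6 but replicate 1 at 1 week (adjusted p = 0.0587 to 0.138) and Polr2f without replicate 1 or 3 at 3 weeks (0.0739 and 0.0768). In the list of 73 tested spliceosome and SR protein genes Srsf1 and Srrm1 rose, by 0.60 and 0.54, and the median was 0.15. Srrm1 lost its call without any of the 6 libraries but replicate 2 at 1 week and without each wild-type library (adjusted p = 0.0571 to 0.188), and Srsf1 without replicate 2 or 3 of either time (0.0799 to 0.158).

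Counts of stress genes stand beside the 2.87% of all genes tested that fell. Of 47 integrated stress response genes 3 fell, and of 39 genes of endoplasmic reticulum chaperones and degradation 2 fell. Of 23 heat shock genes 2 fell. Without replicate 1 of the 1-week group the first and the third count were 8 and 5, and without replicate 3 of the 3-week group each of the 3 counts was 1. Nupr1, a stress-induced nuclear protein that acinar cells also make, had 62.9, 52.8 and 56.9 CPM at 3 weeks, against 83.3, 199 and 190 CPM at 1 week (-1.45 ± 0.25, adjusted p = 0.00272). Sesn2, a sestrin induced by ATF4 and p53, had 20.9, 18.8 and 18.4 CPM at 3 weeks, against 39.5, 33.7 and 38.3 CPM at 1 week (-0.94 ± 0.19, adjusted p = 0.00793), with adjusted p = 0.0593 without replicate 3 at 3 weeks and 0.197 with library totals alone. Unlike Nupr1, Sesn2 was even among the 1-week libraries, and wild type had 17.4, 17.8 and 19.8 CPM. Hspa1a, an inducible heat shock protein, fell by 1.74, with 3.34, 3.85 and 3.60 CPM at 3 weeks and 10.1, 10.4 and 15.7 CPM at 1 week, and was at 55.1 and 25.4 CPM at 5 weeks. Of 32 antioxidant genes 3 fell (1 without replicate 1 or 3 at 3 weeks or replicate 2 or 3 at 1 week, 5 without replicate 1 at 1 week), among them Gpx3, a secreted glutathione peroxidase, with 351, 374 and 353 CPM at 3 weeks and 976, 910 and 1031 CPM at 1 week (-1.44 ± 0.24, adjusted p = 0.00254).

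Ion channel genes of beta cells fell in 2 of 42, beside 2.87% of all genes tested. Kcnk3, the potassium channel TASK-1, had 18.6, 16.1 and 19.8 CPM at 3 weeks, against 43.8, 62.4 and 51.1 CPM at 1 week (-1.53 ± 0.20, adjusted p = 0.000472). Kcnk16, the islet potassium channel TALK-1, had 17.3, 19.8 and 17.8 CPM at 3 weeks, against 48.1, 32.8 and 52.5 CPM at 1 week (-1.28 ± 0.21, adjusted p = 0.00187). The 2 channels differed in their place beside wild type, where Kcnk3 had 18.8, 12.6 and 23.5 CPM and Kcnk16 had 69.3, 70.2 and 55.1 CPM. Imprinted growth genes moved in both directions, Igf2 being higher and 5 of 20 lower, among them Nnat, Grb10 and Zim1 (-1.04, -0.68 and -0.68). With library totals alone or without replicate 1 of the 3-week group none of the imprinted genes fell, and without its replicates 2 and 3, or replicates 2 and 3 at 1 week, 2, 1, 3 and 2 did. The cholesterol synthesis list had no call among 23 tested.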

How the data were processed

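The deposited table holds raw gene counts, 1 column per library. According to the authors' methods and processing notes, reads of amplified cDNA (3 ng of total RNA) went through bcl2fastq (2.17.1.14) for demultiplexing, cutadapt (1.10) for trimming and Bowtie2 (2.2.8) to take out ribosomal RNA before alignment to mm9 by STAR (2.5.3a). HTSeq then counted unique, unambiguous reads per Ensembl gene. Whether counting used strand is not given in the sources used here, so overlapping and antisense genes cannot be separated. The 11 length-scaled columns and the authors' own fold changes and p-values were not used.

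Counts of all 11 libraries were fitted with edgeR 4.0.16 in R 4.3.3 (quasi-likelihood test, 4 group means, TMM scaling, filterByExpr, Benjamini-Hochberg adjustment over 20180 genes), and the contrast was 3 weeks minus 1 week. Values after ± are SE for log2 fold changes, with n = 3 libraries per group. Each is the size of the log2 fold change divided by the square root of the test's F statistic. Each biological replicate is a pool of islets from 2 mice, per the authors' methods, and p-values measure the spread between these pools. Replicates within a group differed by more than counting noise, with a chi-square per degree of freedom of 5.76 to 172.5 over the pairs. Counting error is only part of the spread. The fit was tested on simulated counts. Promoter sequences came from RefSeq, GRCm38.p6, and gene positions and transcript lengths from GENCODE M1, NCBIM37.

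Named genes were 18 fixed ones, the 12 largest changes in each direction (mean of at least 10 CPM in 1 group, no overlap, bare clone names passed over) and up to 4 members per list with the smallest adjusted p. Xist, Reg1, Rph3al, Ighg1 and Aass were added after their values were seen. The members of all lists were chosen with earlier results of these data known. Alternatives were other scalings, filters, the 6 libraries alone, DESeq2 1.42.0, a replicate block and each library left out. Some named genes are not reported here. Replicate 1 at 5 weeks was not analysed here.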

Additional observations from a re-analysis of the deposited data

How the results depend on the processing

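The count of lower genes stood at 377 and of higher genes at 40. Library totals alone gave 222 and 748, no filter on low counts gave 113 higher, and the adjusted p alone gave 580 and 190. Leaving out 1 library at a time gave 148 to 521 lower and 16 to 53 higher genes. Labels do not say that equal replicate numbers were prepared together. Deviations of equal-numbered libraries correlated at 0.073, -0.0682 and -0.0461, and those of unequal-numbered ones at -0.1154 to 0.1467. Such values cannot show whether libraries were prepared together. With the replicate block 266 genes were lower and 26 higher. The DESeq2 test gave 463 and 58, and the 6 mutant libraries alone 368 and 41. Of 116 named genes with a call, 38 lost it with library totals alone, 29 with the replicate block, 7 with endocrine scaling, 7 in DESeq2 (Ccnb2 had no adjusted p there) and 4 with 6 libraries, and none changed sign in any setting. Leaving out a 3-week library lost 40 to 60 of these calls, a 1-week library 10 to 43. Nkx6-1 was called only with library totals alone (0.90). The cause of these differences was not tested, beyond the smaller number of libraries in the leave-out fits.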

Other observations

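Nr1d1 and Bhlhe40 led to a list of 18 clock genes that was chosen after their values were seen and holds both. Besides them Tef, Per3 and Per2 rose and none fell, so that the count is a description only. Tef, an output factor of the clock, had 37.0, 38.5 and 42.1 CPM at 3 weeks, against 18.6, 20.9 and 20.6 CPM at 1 week (0.97 ± 0.14, adjusted p = 0.000818, edgeR). Per3, a period gene, had 51.5, 50.3 and 50.3 CPM at 3 weeks, against 24.0, 33.5 and 30.7 CPM at 1 week (0.79 ± 0.16, adjusted p = 0.00805), and Per2 rose by 0.60 (adjusted p = 0.0494). Arntl, which encodes BMAL1 and peaks in antiphase to these genes, had 6.01, 7.29 and 8.03 CPM at 3 weeks and 12.9, 15.003 and 8.20 CPM at 1 week (-0.77 ± 0.22, adjusted p = 0.0565). In wild type Tef had 26.5, 29.8 and 28.6 CPM and Per3 had 28.2, 31.0 and 24.9 CPM. Without any 1 of the 3-week or 1-week libraries 4 of the list rose, Nr1d1 and Bhlhe40 among them, and 1 fell without replicate 3 at 1 week. The labels do not give the hour at which islets were collected, and its part was not tested.

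Markers of mesothelium, the lining of abdominal organs, were lower as well, in a list of 8 genes chosen after their values were seen, of which 7 were tested and 4 fell. Msln, mesothelin, had 1.27, 1.42 and 1.04 CPM at 3 weeks, against 16.7, 4.62 and 4.58 CPM at 1 week (-2.79 ± 0.47, adjusted p = 0.00269). Unlike the acinar genes it was highest in replicate 1 at 1 week. Upk3b, uroplakin 3b, was at 0, 0.121 and 0 CPM at 3 weeks and 0.987, 5.96 and 1.85 CPM at 1 week. Without replicate 2 or 3 of the 1-week group, or replicate 1 or 2 of the 3-week group, 2 of the list fell.

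The GABA-synthesising enzymes Gad1 and Gad2 differed in direction. Gad1 had 82.1, 84.1 and 89.1 CPM at 3 weeks, against 41.8, 44.3 and 40.9 CPM at 1 week (1.01 ± 0.18, adjusted p = 0.00433). Gad2 had 1.142, 0.850 and 1.15 CPM at 3 weeks, against 1.79, 3.21 and 8.52 CPM at 1 week (-2.09 ± 0.48, adjusted p = 0.0189). Levels of Gad2 were low and uneven at 1 week (SD 3.55 around a mean of 4.50 CPM), with replicate 3 the highest. These genes were chosen after their values were seen.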
